A study of Solanum lycopersicum with 4 samples.

Results

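Solyc07g066330 and Solyc07g062840 are the 2 NAC domain genes of tomato (Solanum lycopersicum) described here, both listed as targets of the microRNA miR164. Solyc07g062840 is the gene known as Goblet. They were taken by gene identifier and not by a measured value, and they are 2 of the 5373 cDNAs that the deposited degradome tables list. The tables hold 3 entries for them, 1 for Goblet and 2 for Solyc07g066330, out of 12952 entries in all. The fruits were whole fruits of the variety Ailsa Craig from greenhouse plants, with no genotype or treatment that differed between groups. There were 4 stages with 1 library each: 5 days after pollination, mature green, breaker (when colour first changes) and 7 days after breaker, which the file headers call red ripe. The number of fruits behind a library is not stated in the labels.

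NAC proteins are plant transcription factors that share the DNA-binding domain annotated here as No apical meristem (NAM). A subgroup of them, the NAM and CUC genes, is known for marking the boundaries between growing organs, and miR164 is known to restrict these genes by cutting their mRNAs. In tomato, Goblet is known for its part in meristem and organ boundaries and in the separation of leaflets, and alleles with a disturbed miR164 site are known to change leaf shape. No role is given here for Solyc07g066330 beyond its annotation as a NAC domain protein. The RefSeq gene table holds a gene with the symbol NAM and the synonym goblet on chromosome 7. That table has no identifiers of the kind used in the deposited files, so the link rests on the name.

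Degradome sequencing reads where RNA fragments begin, for fragments that have a poly(A) tail and no cap. A plant mRNA cut by a microRNA leaves such an end opposite position 10 of the small RNA, counted from its 5′ end. Values are tags per 10000000 tags (TP10M), which the authors rounded to whole numbers, at the site and over the whole cDNA. A listed peak also has a category. As CleaveLand, the program behind the tables, is known to use them, category 0 stands for a peak above every other position of its cDNA and category 1 for a tie at the top. Peaks below the top fall in categories 2 and 3, and positions with only 1 read in category 4.

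The miR164 sites of both genes were the highest positions of their cDNAs, alone or in a tie, at the 3 stages that listed them. The Solyc07g066330 site lay at cDNA position 762 and was of category 0 at 5 days after pollination, category 1 at mature green and category 0 at 7 days after breaker. The Goblet site lay at cDNA position 724 and was of category 0 at all 3 of these stages. Neither was listed at breaker. Among all position 10 sites, category 0 or 1 was held by 2.84% of the 2538 listed at 5 days after pollination. The share was 3.7% of 2300 for mature green and 2.54% of 2008 for 7 days after breaker. In the authors' deposited table the p-value was 0.01 for both sites at each of the 3 stages. The deposited q-value was 0.03 for Goblet at each of them, while for Solyc07g066330 it was 0.03, 0.02 and 0.03 in stage order.

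The 2 sites differed widely in level. The Solyc07g066330 site had 78 TP10M at 5 days after pollination, 1 in mature green fruit and 5 at 7 days after breaker. The Goblet site had 3 TP10M at 5 days after pollination, 2 in mature green fruit and 1 at 7 days after breaker. Solyc07g066330 was thus high in 1 library, the youngest fruit, and Goblet was low in every library that listed it. By site value, Solyc07g066330 ranked 20 of 2538 position 10 sites at 5 days after pollination. Goblet ranked 211 there, level with other sites of the same rounded value (73 sites in all).

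**Figure D1:**
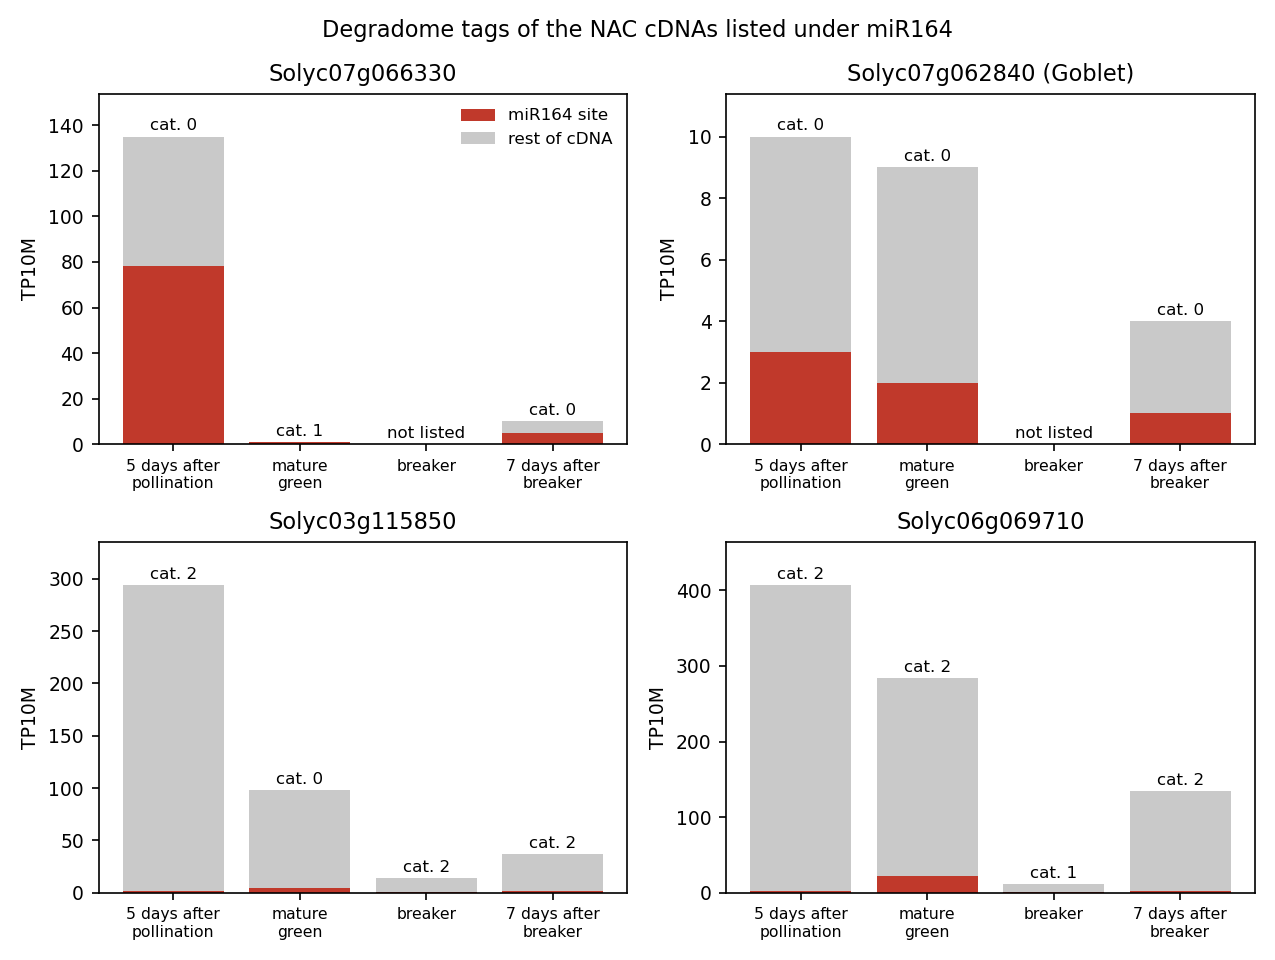
Tags (TP10M, vertical axis) in each library for the 4 NAC cDNAs listed under miR164, split into the position 10 site (red) and the rest of the cDNA (grey), with the peak category above each bar and a separate scale in each panel. The site makes up 57.8% of the Solyc07g066330 bar at 5 days after pollination and 30% of the Goblet bar, against at most 8.33% in any bar of Solyc03g115850 and Solyc06g069710.

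The cut ends made up a large part of all tags on these cDNAs. The whole cDNA of Solyc07g066330 had 135 TP10M at 5 days after pollination, 1 in mature green fruit and 10 at 7 days after breaker. The site held 57.8% of that total at 5 days after pollination and 50% at 7 days after breaker. At mature green the site and the total were both listed as 1, while category 1 means that another position was as high, which whole numbers of this size do not resolve. The whole Goblet cDNA had 10 TP10M at 5 days after pollination, 9 in mature green fruit and 4 at 7 days after breaker. Its site held 30%, 22.2% and 25% in the same order, shares that rest on 3, 2 and 1 TP10M.

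These shares can be set against other cDNAs of similar totals at 5 days after pollination. Of 2139 position 10 sites on cDNAs with at least 100 TP10M, 7 had a share at or above that of Solyc07g066330, itself included, and the median share was 0.0777%. Of 60 position 10 sites on cDNAs with 5 to 20 TP10M, 4 had a share at or above that of Goblet, itself included, and 9 were of category 0. These ranges of totals were set after the values had been seen.

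**Figure D2:**
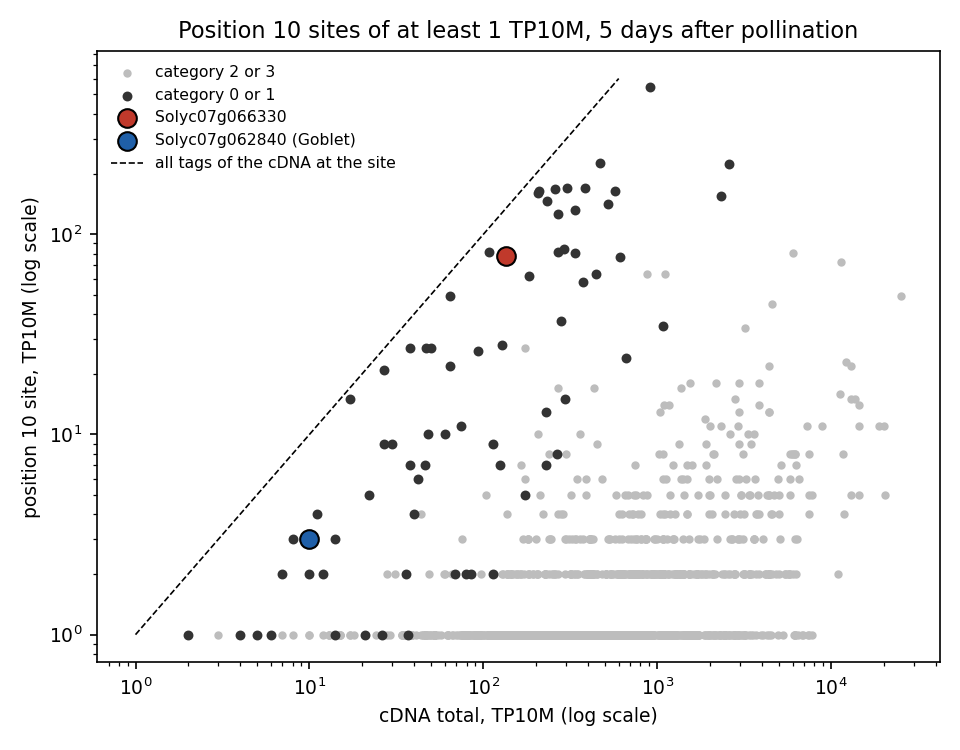
Value of each position 10 site of at least 1 TP10M (vertical axis) against the total of its cDNA (horizontal axis), both in TP10M on log scales, in the library of 5 days after pollination; each point is a site, dark points are of category 0 or 1 and the dashed line marks a cDNA with all its tags at the site. Solyc07g066330 lies at 78 of 135 TP10M, somewhat below the dashed line, and Goblet at 3 of 10, further below it.

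At mature green, Solyc07g066330 had far fewer cut ends than in young fruit. Its site had 1 TP10M at mature green, against 78 at 5 days after pollination, a log2 ratio of -5.30 on the scale of TP10M plus a pseudocount of 1. For a call of higher or lower, the 2 libraries had to hold 50 TP10M or more between them and be 2-fold or more apart on this log scale. By this rule 15 of 43 position 10 sites were lower at mature green, or 34.9%, and 15 were higher, with a median log2 ratio of -0.35 over the 43. The ratio of Solyc07g066330 was the lowest of the 43. Each stage had 1 library, so the ratios compare single libraries, without replicates to test them.

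At 7 days after breaker its site had 5 TP10M, against 78 at 5 days after pollination, a log2 ratio of -3.72. Here 25 of 35 position 10 sites were lower, or 71.4%, and 7 were higher, with a median of -2.32. Most tested sites were lower in this pair, as Solyc07g066330 was, and 10 of the 35 had a ratio at or below its own, itself included. The mature green and 7 days after breaker libraries summed to 6 TP10M for this site, too few for a call.

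**Figure D3:**
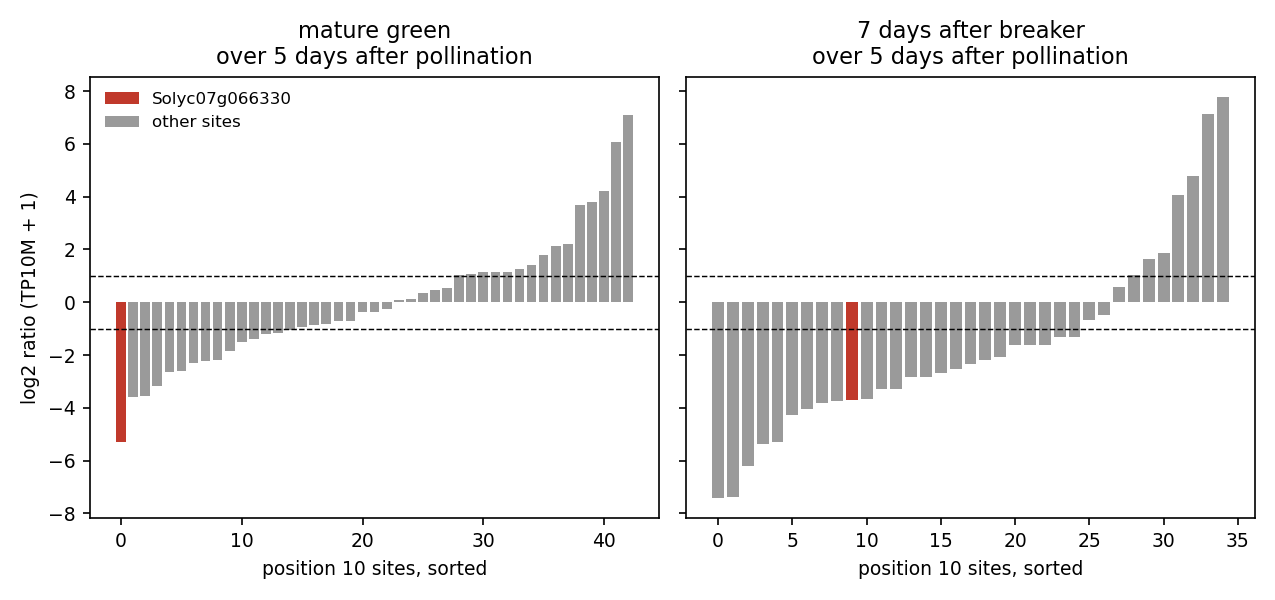
Log2 ratios (TP10M plus 1, vertical axis) of the position 10 sites whose values sum to at least 50 TP10M, sorted, for mature green over 5 days after pollination (43 sites) and 7 days after breaker over 5 days after pollination (35 sites); dashed lines mark a 2-fold difference. Solyc07g066330 (red) is the lowest bar of the first panel at -5.30 and lies within the lower group of the second at -3.72.

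Tags outside the site went the same way as tags at the site in Solyc07g066330. The rest of its cDNA is the listed total minus the listed site. It came to 57 TP10M in fruit of 5 days after pollination and to 5 at 7 days after breaker. For mature green fruit the difference was 0, from 1 and 1, which rounding does not resolve. Category 1 there means that another position was as high as the site, so the rest was low but not absent. The log2 ratio of the cDNA total was -6.09 at mature green over 5 days after pollination and -3.63 at 7 days after breaker over 5 days after pollination. Of 2284 cDNAs with totals listed in both libraries and a sum of at least 50 TP10M, 18.6% were at least 2-fold lower at mature green, with a median of -0.23, and 2 had a ratio at or below that of Solyc07g066330, itself included. At 7 days after breaker 23.7% of 2047 cDNAs were lower, with a median of -0.23, and 53 were at or below it. The files hold no measure of intact mRNA, and in whole fruits fewer cells of a type and less RNA per cell cannot be told apart. Nor can the amount of mRNA and the rate of cutting.

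For Goblet no difference between stages could be called at this depth. Its site had 2 TP10M at mature green, against 3 at 5 days after pollination, a log2 ratio of -0.42, and 1 at 7 days after breaker, a ratio of -1.0 over the same library. The sums of 5 and 4 TP10M were below the minimum for a call. The rest of its cDNA had 7 TP10M at both 5 days after pollination and mature green and 3 at 7 days after breaker.

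Depth behind these values is known only within bounds. All category 4 peaks were listed at 0 TP10M, and the lowest value in any other category was 1, in each of the 4 libraries. If category 4 is a single read, the others hold at least 2, and rounding was to the nearest whole number, a read was worth 0.25 to 0.5 TP10M. On that reading 78 TP10M stands for 155 to 314 reads, 3 for 5 to 14 and 1 for 2 to 6, so the Goblet values rest on few reads. No interval was computed for TP10M.

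Neither gene was listed at breaker, which gives no value for the site or for the cDNA total there. Of 27 position 10 sites with at least 50 TP10M at 5 days after pollination, 2 were not listed at breaker, or 7.41%. They were Solyc07g066330 and the AP2-like gene Solyc09g007260 (81 TP10M at 5 days after pollination). For sites as low as that of Goblet absence was common: of 1242 sites with 1 to 5 TP10M at 5 days after pollination, 68% were not listed at breaker. The breaker library listed the fewest position 10 sites, 1118, against 2538, 2300 and 2008 at 5 days after pollination, mature green and 7 days after breaker, and its part in this result was not tested.

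The absence at breaker was also set against sites of like category at the other stages. Category 0 or 1 at the 3 other stages was held by 28 position 10 sites. Of these, 18 were of category 0 or 1 at breaker too, 4 were of category 2 or above there and 6 were not listed. The 6 were Solyc07g066330, Goblet, Solyc09g007260 and 3 disease resistance genes (Solyc02g036270, Solyc07g005770 and Solyc11g070000). Goblet and Solyc11g070000 each had 3 TP10M at 5 days after pollination, a level at which absence at breaker was common over sites of any category.

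Under the name miR164 the tables held 235 entries on 140 cDNAs, most of them weak matches. The penalty of TargetFinder, which is lower for better pairing, was 2 for Solyc07g066330 and for Goblet, the lowest of all 140 cDNAs, and 6 or more at 198 of the entries. The other NAC cDNAs under miR164, Solyc03g115850 and Solyc06g069710, both had a penalty of 4, and 3 cDNAs outside the family had 3.5. Of the 235 entries 5 were of category 0 or 1 in a library. Position 10 held 4 of the 5, and these were the 4 NAC cDNAs. The remaining one was a position 9 peak of 1 TP10M at 7 days after breaker, category 1, in Solyc11g072120, annotated as a 2-oxoglutarate-dependent dioxygenase, an oxidising enzyme class. None of the 3 cDNAs with a penalty of 3.5 had such a peak. Over all small RNA names, 21 of 63 position 10 sites with a penalty of at most 2 were of category 0 or 1 in at least 1 library (33.3%), against 16.4% of 286 sites above 2 and up to 4, and 1.6% of 3999 sites above 4.

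**Figure D4:**
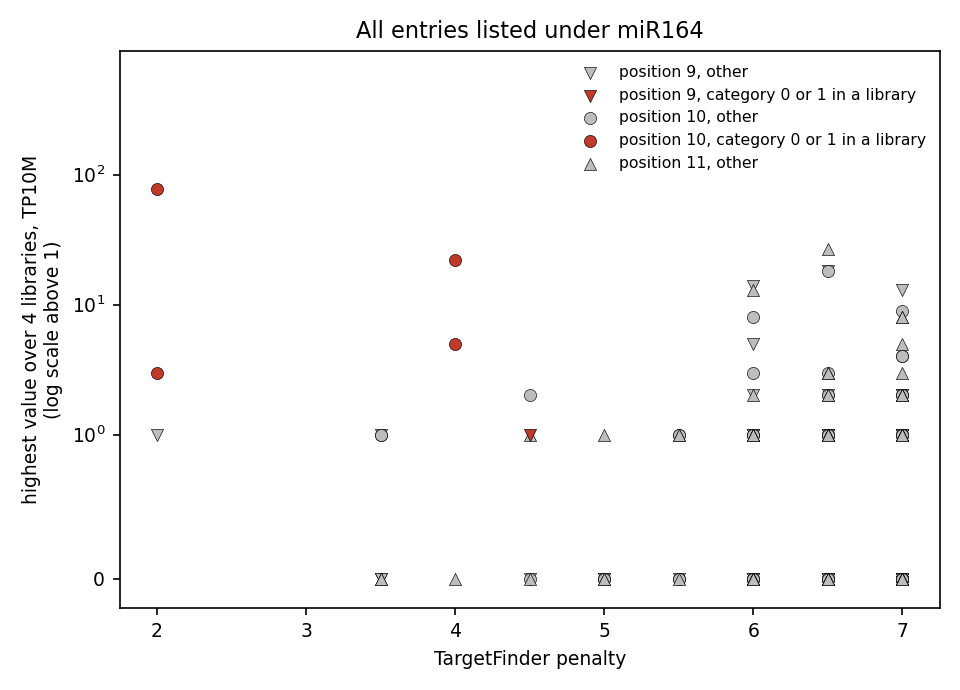
Highest value over the 4 libraries (TP10M, vertical axis, on a log scale above 1) against the TargetFinder penalty (horizontal axis) for the 235 entries listed under miR164; symbols give the position opposite the small RNA and red marks a peak of category 0 or 1 in at least 1 library. The 4 red circles are the NAC cDNAs, with Solyc07g066330 at 78 and Goblet at 3 TP10M, both at a penalty of 2.

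Cut ends of Solyc07g066330 lay mainly opposite position 10. Its second entry, opposite position 9 at cDNA position 763, had 1 TP10M at 5 days after pollination with category 2, against 78 at position 10. It was not listed in the other libraries, and no entry at position 11 was listed for either gene. Goblet had no entry at position 9.

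The other NAC cDNAs under miR164 had a smaller share of their tags at the site. The Solyc03g115850 site had 2, 5, 1 and 2 TP10M in stage order, on a cDNA total of 294, 98, 14 and 37. It was of category 0 at mature green and category 2 at the other stages. The Solyc06g069710 site had 2, 22, 1 and 2 TP10M, on a total of 407, 284, 12 and 135. It was of category 1 at breaker, where it had 1 of 12 TP10M, and of category 2 at mature green, where it was highest. By listed value Solyc07g066330 and Goblet were highest at 5 days after pollination, and Solyc03g115850 and Solyc06g069710 at mature green. Between these stages only the Solyc07g066330 site had enough tags for a call. The sites of Goblet, Solyc03g115850 and Solyc06g069710 summed to 5, 7 and 24 TP10M there, below the minimum. For Solyc06g069710 the log2 ratio of mature green over 5 days after pollination was 2.94, opposite in direction to that of Solyc07g066330. Its sum lies above the alternative minimum of 10 TP10M, under which it would be called higher. By listed values, the site shares of Solyc03g115850 and Solyc06g069710 ran from 0.491% to 8.33%, below every share of Solyc07g066330 and Goblet. The 8.33% of Solyc06g069710 rests on 1 of 12 TP10M at breaker. The 25% of Goblet rests on 1 of 4 at 7 days after breaker, so rounding does not resolve the order of these shares. Together Solyc07g066330 and Goblet held 81 TP10M at 5 days after pollination, out of 125 listed at position 10 under miR164. The same count was 3 out of 68 for mature green, none out of 29 for breaker and 6 out of 34 for the last stage.

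Totals of the Solyc03g115850 and Solyc06g069710 cDNAs were called lower at 7 days after breaker than at 5 days after pollination, like that of Solyc07g066330. The Goblet total, 4 against 10 TP10M, was too low for a call. Over all cDNAs with a sum of at least 50 TP10M, 23.7% were lower in this pair. The share was 18.6% for mature green over 5 days after pollination. Solyc03g115850 had a log2 ratio of -1.58 for mature green and -2.96 for 7 days after breaker, each over 5 days after pollination, and was lower in both. Solyc06g069710 had -0.52 and -1.58 in the same pairs and was lower at 7 days after breaker.

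Beyond miR164, 10 further NAC cDNAs were listed under other small RNA names, with penalties of 5 or more. None of the 10 had a site of category 0 or 1 in any library, and their highest site value was 5 TP10M. Such peaks were rare at these penalties, held by 1.6% of all position 10 sites with a penalty above 4. Their cDNA totals ran from 3 to 3390 TP10M. Of the 5 with totals at both mature green and 5 days after pollination, none was at least 2-fold lower at mature green, and Solyc10g055760 was higher (574 against 150 TP10M, log2 ratio 1.93). Of the 4 with totals at both 7 days after breaker and 5 days after pollination, Solyc06g073050 was lower (1580 against 3390 TP10M, -1.10).

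Sites with a like course over the stages were sought among 58 position 10 sites whose 4 values summed to at least 50 TP10M, by the Euclidean distance between their shares of that sum over the 4 libraries. Sites with identical values were counted once, which left 53. A library that did not list a site was counted as 0 in the sum and the shares, as breaker was for Solyc07g066330 and Goblet. For Solyc07g066330, with 92.9% of its sum at 5 days after pollination, the nearest were growth-regulating factor 1 (Solyc07g041640, under miR396), at a distance of 0.0842, and 2 AP2-like genes under miR172. These were Solyc10g084340 (0.0858) and Solyc09g007260 (0.0953). Growth-regulating factors are known to promote cell proliferation. The 3 sites had 169, 164 and 81 TP10M at 5 days after pollination and 13, 13 and 8 at mature green. At 7 days after breaker Solyc07g066330 had 5 TP10M, where these 3 sites had at most 1 or were not listed. These values are too low for a call of a difference. The median share of the sum at 5 days after pollination was 19.3% over the 58 sites, and 2 of them had a share at or above that of Solyc07g066330, itself included.

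For Goblet, whose own sum was 6 TP10M, the nearest sites were those of a superoxide dismutase (Solyc11g066390, under miR398, 0.101), an enzyme that removes superoxide, a MYB transcription factor (Solyc06g073640, under miR159 and miR319, 0.144) and a ribosomal protein (Solyc04g005680, under miR414, 0.168). Distances for Goblet carry the rounding of 3, 2 and 1 TP10M. With 4 libraries, likeness is a description and rests on the same libraries for each site.

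**Figure D5:**
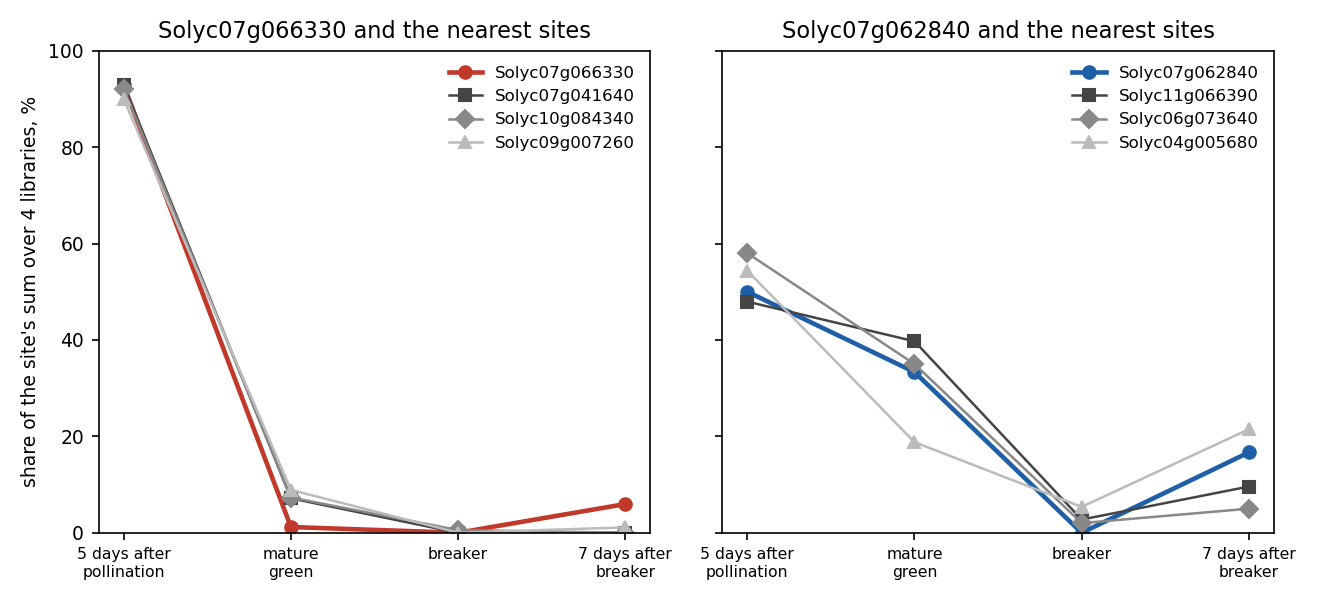
Share of a site's summed value found in each library (percent, vertical axis) for Solyc07g066330 and Goblet (Solyc07g062840, thick lines) and the 3 position 10 sites nearest to each, over the 4 stages; a library that does not list a site is drawn at 0. Solyc07g066330 has 92.9% of its sum at 5 days after pollination and 5.95% at 7 days after breaker, while Goblet has 50%, 33.3% and 16.7% at the 3 stages that list it.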

How the data were processed

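Whole fruits at 4 stages were profiled by PARE (parallel analysis of RNA ends) on polyadenylated RNA, 1 library per stage, per the labels' protocols. CASAVA 1.8.0 is named in the submitters' processing notes, which do not name the aligner or tag filters. Per the file headers, the 3 deposited tables are CleaveLand output for ITAG2.3 cDNAs, with peaks opposite positions 9, 10 and 11. The tag values are deposited scores in TP10M, rounded by the authors, and the alignment penalty is a deposited score too. Per the file headers, the deposited p-values are CleaveLand's estimate that a peak arose by coincidence, and the q-values adjust them by the Benjamini-Hochberg method. Library totals were not among the deposited columns used.

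Blank entries were dropped and each cDNA position was counted once. Ratios used a pseudocount of 1 TP10M with a dash read as 0, and no ratio is given where a named site was not listed. The call rule was a sum of at least 50 TP10M and a 2-fold difference. Alternatives were a pseudocount of 5, a sum of 10, median-of-ratios scaling over 1021 cDNAs, all 3 positions summed, cDNA totals, category 0 or 1 sites alone and, chosen after seeing the data, identical values counted once. Named genes were the 2 NAC genes, other miR164 entries that were NAC or of category 0 or 1, and the 3 nearest courses to each; others were named after their values were seen. The genes and lists were chosen with earlier results of these data known. Python 3.11.15, pandas 2.3.3 and numpy 2.4.6 were used.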

Additional observations from a re-analysis of the deposited data

How the results depend on the processing

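Each site ratio of Solyc07g066330 and Goblet kept its direction and its call, or lack of one, under the 4 alternatives tried for it: a pseudocount of 5 TP10M, median-of-ratios scaling, all 3 positions summed and the cDNA total. For Solyc07g066330 the log2 ratio ran from -6.09 to -3.79 at mature green over 5 days after pollination and from -3.74 to -3.05 at 7 days after breaker. For Goblet it ran from -0.42 to -0.14 and from -1.14 to -0.42. Lowering the minimum sum to 10 TP10M let more position 10 sites in, of which 55 were then higher and 47 lower at mature green, while 43 were higher and 70 lower at 7 days after breaker. Keeping category 0 or 1 sites alone left fewer, with 8 higher and 11 lower at mature green, and 3 higher and 21 lower at 7 days after breaker. Rounding to whole TP10M and 1 library per stage limit all values. No paired analysis was possible because each stage has 1 library.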
